A study of Mus musculus with 2 samples.

Results

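The genes described here build the cornified envelope and the epidermal lipid barrier. They are 44 genes chosen by name: the cornified envelope proteins other than the small proline-rich (Sprr) and S100 families, the late cornified envelope (Lce) genes, the enzymes that crosslink the envelope, and enzymes and transporters of barrier ceramides. Of the 44 genes, 43 had a row of their own in the table, of 30698 genes that did. A total of 31 were measured, of 19512 measured genes, where measured means that the brighter of both values reached 5.44, the median over the whole table. A further 12 lay below that low-signal level in both arrays. The remaining gene, Lce1g, shares its only row with Lce1l and is not counted.

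RNA came from the corneal epithelium of C57BL/6 mice of both sexes at 8 weeks of age, under anaesthesia with xylazine at 13 mg/kg and ketamine at 87 mg/kg. In the injured group the whole thickness of the epithelium had been scraped off up to the limbus, the rim where the cornea ends, with a 0.5 mm rust ring remover, and the epithelium was collected near 48 hours, with 10% of the original wound left to close. The uninjured group is the epithelium of the fellow eyes of the same wounded mice, so it is a contralateral control and not tissue from unoperated animals. Each group is 1 array, how many mice were pooled for it is not stated in the labels, and no difference below has a replicate check, a standard deviation or a test.

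In keratinising epithelia such as the epidermis, dying surface cells replace their plasma membrane with a cornified envelope: transglutaminases crosslink precursor proteins onto a scaffold beneath the membrane, and ceramides secreted from lamellar granules are bound to its outer face. The corneal surface normally stays wet and does not cornify, although it expresses part of the same gene set. Many of these genes sit side by side in the epidermal differentiation complex on mouse chromosome 3, while Sbsn, Dmkn and Krtdap, which encode secreted proteins of the upper epithelial layers, are direct neighbours on chromosome 7.

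Promoter sequence is shown for the 3 secreted-protein genes, whose values were all higher in the injured epithelium. It is also shown for the precursor genes Ivl and Lor and the S100-fused gene Flg, whose values differed little. These are the 130 bases before each transcription start, on the strand of the gene, from RefSeq (GRCm38.p6). Capitals mark a match to TGANTCA, a loose form of the site of AP-1 factors, which are dimers of Fos and Jun proteins. The usual site has G or C at its centre. All 6 promoters shown hold a match, but only 9 of the 40 members with a promoter window do. The 6 therefore do not stand for the members as a whole, and Cnfn, a precursor gene that was higher, has no match.
Sbsn, chr7:30751341-30751470, plus strand: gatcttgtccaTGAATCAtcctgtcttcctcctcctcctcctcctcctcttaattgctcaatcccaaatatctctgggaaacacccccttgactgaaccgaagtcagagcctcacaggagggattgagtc
Dmkn, chr7:30763626-30763755, plus strand: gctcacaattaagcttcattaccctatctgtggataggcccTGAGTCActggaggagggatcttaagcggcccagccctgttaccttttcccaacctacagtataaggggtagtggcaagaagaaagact
Krtdap, chr7:30787775-30787904, plus strand: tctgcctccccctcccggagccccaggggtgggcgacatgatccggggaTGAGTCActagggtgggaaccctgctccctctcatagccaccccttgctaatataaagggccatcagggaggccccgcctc
Ivl, chr3:92573736-92573865, minus strand: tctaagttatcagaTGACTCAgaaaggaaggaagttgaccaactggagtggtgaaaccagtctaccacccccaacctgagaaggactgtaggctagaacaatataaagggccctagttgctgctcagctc
Lor, chr3:92083143-92083272, minus strand: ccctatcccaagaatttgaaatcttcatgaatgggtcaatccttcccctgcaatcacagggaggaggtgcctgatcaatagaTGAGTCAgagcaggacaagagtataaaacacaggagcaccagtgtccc
Flg, chr3:93273416-93273545, plus strand: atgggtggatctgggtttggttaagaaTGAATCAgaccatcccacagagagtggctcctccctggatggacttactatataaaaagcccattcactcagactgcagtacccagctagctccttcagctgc

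The comparison asks how genes of the cornified envelope and its lipids differ between wounded epithelium during closure and its intact counterpart. All values are log2 intensities as deposited, differences are injured minus uninjured, and a gene was counted at a log2 difference of 1 or more in size, which is 2-fold. Of the 31 measured members, 5 were at least 2-fold higher in the injured epithelium (16.1%) and 6 at least 2-fold lower (19.4%). Over all measured genes the shares were 4.14% higher and 3.92% lower, 8.06% in both directions together, against 35.5% of the measured members. The members were chosen with earlier results of these data known, so the contrast of these shares describes the list and is no independent test. The members higher were Krtdap, Dmkn, Abca12, Sbsn and Cnfn, of which Krtdap and Abca12 counted as measured only through the injured array where they are high. Those lower were Asprv1, Lce3a, Lipm, Csta1, Evpl and Tgm5. The median difference of the measured members was -0.07, beside 0.06 for all measured genes, and -0.38 over the 19 members whose brighter value reached the 75th percentile of the table. The other 20 measured members were less than 2-fold apart, between -0.97 and 0.88. Among them, Lce3b and Lipk counted as measured only through the uninjured array, where they are higher.

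**Figure D1:**
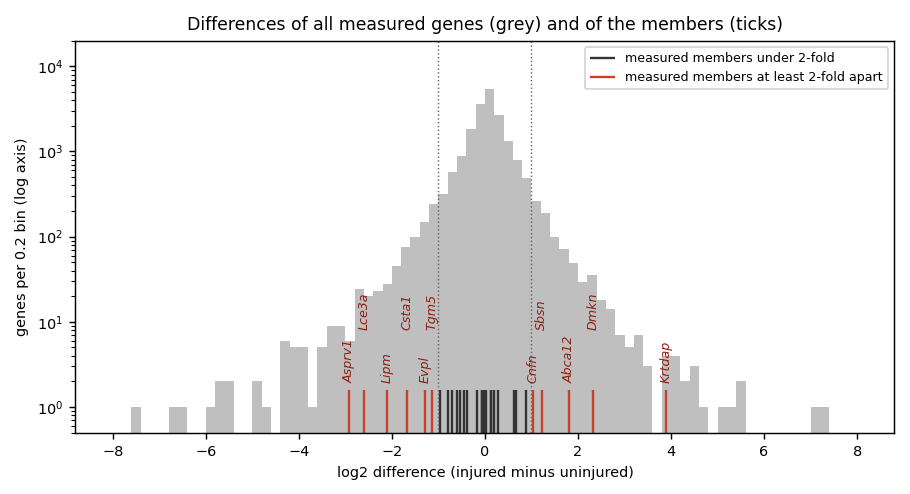
Histogram of the log2 difference (injured minus uninjured) of the 19512 measured genes in grey, with the number of genes per bin on a log axis, and 1 tick for each of the 31 measured members. Dotted lines stand at a 2-fold difference; 11 members lie outside them, from Asprv1 at -2.93 to Krtdap at 3.89.

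The design gives no error of its own beyond the scatter among rows that carry the same gene, whose log2 differences had a standard deviation of 0.242 over 542 rows of 256 genes. Such rows read the same RNA on the same arrays, so this scatter holds no variation between animals or arrays. Each of the 43 members has a single row, so none has such a check of its own. The differences of Cnfn, Sbsn and Tgm5 on one side of the 2-fold threshold, and of Ppl, Tgm1 and Lipk on the other, lay within that standard deviation of it. Of the 20 members under 2-fold, 9 differed by less than it.

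**Figure D2:**
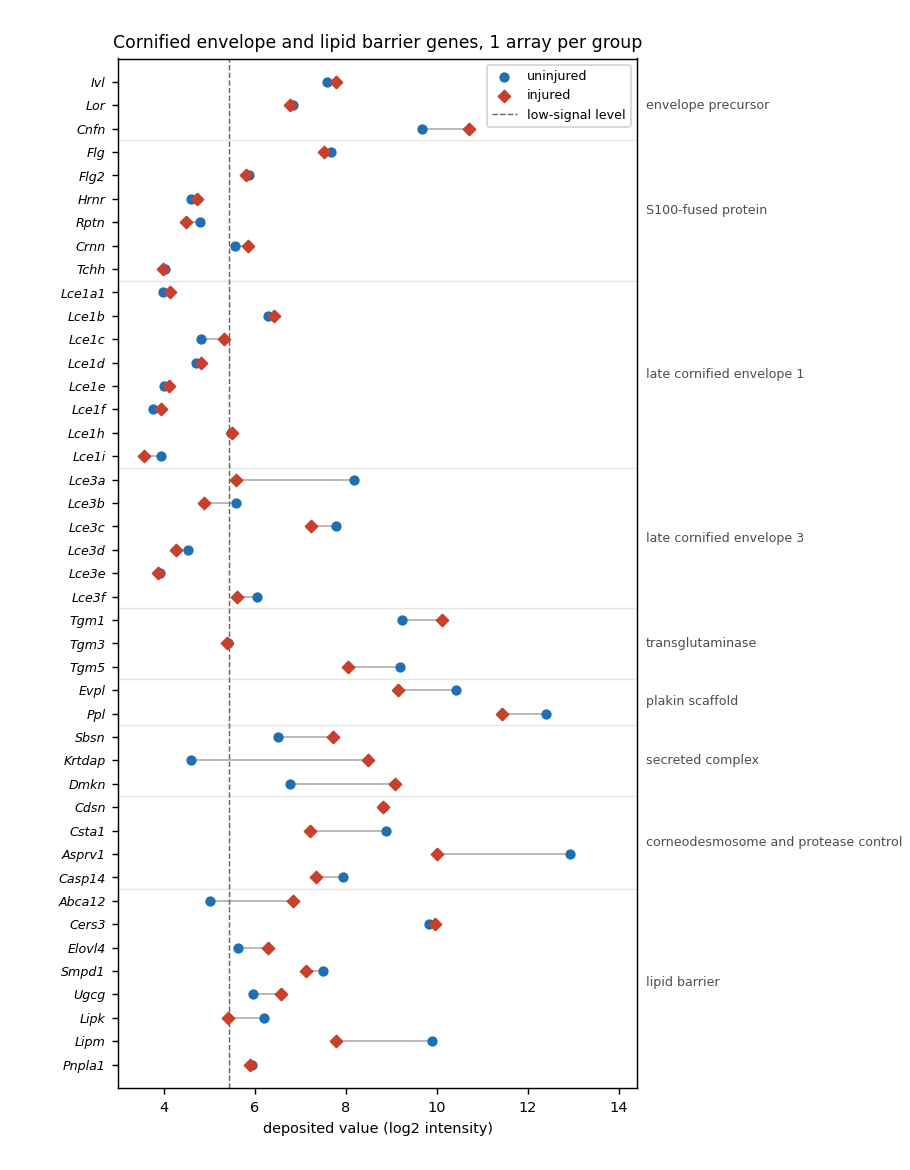
Deposited log2 intensity of the 43 members with a row of their own, grouped by role, with blue circles for the uninjured and red diamonds for the injured array. The dashed line is the low-signal level of 5.44; levels can be compared between the arrays of one gene but not between genes, whose probes differ.

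Markers of corneal epithelium were read in both arrays, and most of those measured were lower in the injured one. Krt12, the keratin of the corneal epithelium, read 14.07 uninjured and 10.85 injured, and the eye transcription factor Pax6 read 10.63 and 9.31. Slurp1 read 13.22 uninjured and 6.61 injured (97.7-fold lower), and Aldh3a1 read 13.66 and 10.98 (6.41-fold lower). Of the 8 corneal markers 7 were measured. These 4 were at least 2-fold lower in the injured array, the basal keratin Krt14 was higher, and Krt5 and Clu were less than 2-fold apart. Of 6 markers of cornifying epidermis, 5 were measured: Krt1 (6.19 uninjured, 6.08 injured), Krt10 (7.44, 7.58), Krt77 and Dsc1 were less than 2-fold apart, Krt78 was 3.36-fold lower, and Krt2 lay below the low-signal level. The summed level of the corneal list was 15.87 uninjured and 14.86 injured on the log2 scale, and that of the epidermal list was 9.81 uninjured and 9.14 injured; such sums follow the brightest rows of a list. Conjunctival and goblet cell markers summed to 13.37 uninjured and 13.65 injured, and 9 of 9 were measured, with Krt19 and Krt7 at least 2-fold higher and the goblet mucin Muc5ac lower. Hair follicle and gland markers summed to 10.65 uninjured and 11.34 injured with 0 of 6 measured genes past 2-fold; Scd1 differed by 0.84 and the other 5 by -0.26 to 0.06. Stromal markers summed to 8.81 uninjured and 8.54 injured, with Kera and Lum below the low-signal level. Of the 4 measured, Dcn was lower (6.09 uninjured, 4.77 injured), though its difference was -0.99 with a constant added to the linear intensities. Leukocyte markers summed to 9.61 uninjured and 9.83 injured, with Ptprc and Adgre1 below the low-signal level and 0 of 6 measured past 2-fold. For all these lists, the share of all measured genes past 2-fold was 8.06%. The part of other cell types in the differences was not tested, and in a bulk sample fewer cells of a type cannot be told apart from less RNA per cell.

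All 3 genes for secreted proteins of the stratified epithelium were at least 2-fold higher. Krtdap, keratinocyte differentiation-associated protein, read 4.59 in the uninjured and 8.48 in the injured array, a log2 difference of 3.89. Dmkn, dermokine, read 6.77 uninjured and 9.08 injured, 4.99-fold higher. Sbsn, suprabasin, read 6.50 uninjured and 7.73 injured, 2.33-fold higher. The sizes were thus unequal among these neighbours. The uninjured Krtdap value lay below the low-signal level, so Krtdap counted as measured only through the injured array and the size of its difference is uncertain: 14.8-fold as deposited, and 9.77-fold when 13.9 was added to both linear intensities before the log2 step (below, the constant).

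The measured genes around this trio were under 2-fold. Of the 8 protein-coding genes on each side in RefSeq order, 13 were measured, with differences between -0.12 and 0.78. Of these 13, 0 were at least 2-fold apart, which is near the share of 8.06% over all measured genes. Gapdhs, next to Sbsn, read 5.44 uninjured and 5.64 injured. Ffar2, the fatty acid receptor gene next to Krtdap, lay below the low-signal level with 4.85 and 4.97.

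**Figure D3:**
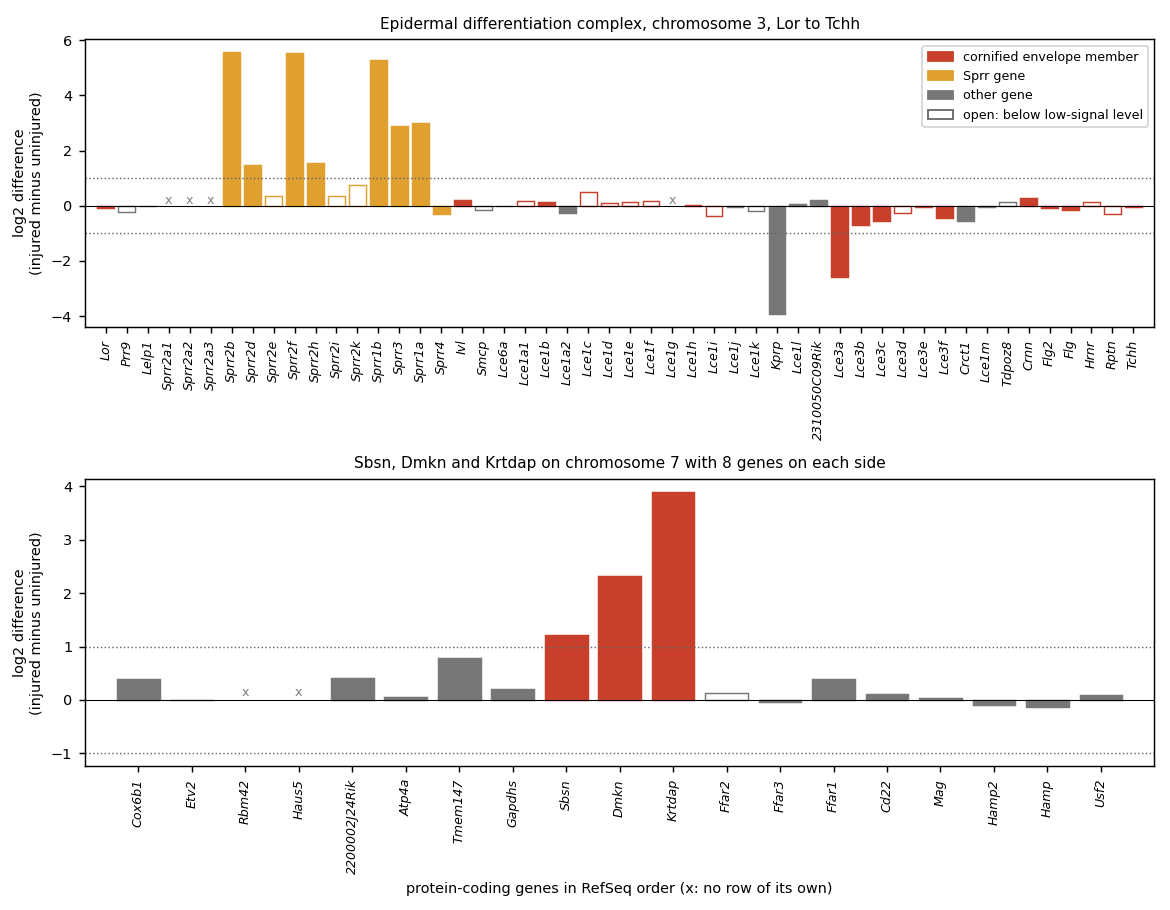
Log2 difference (injured minus uninjured) of protein-coding genes in chromosomal order, across the epidermal differentiation complex from Lor to Tchh (top) and around Sbsn, Dmkn and Krtdap (bottom). Open bars are genes below the low-signal level, x marks a gene with no row of its own, and dotted lines mark a 2-fold difference. In the upper panel 7 of the 14 Sprr genes stand up past 2-fold, Kprp and Lce3a stand down and most other bars are near 0.

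Of the 3 envelope precursors among the members, Ivl and Lor differed little and Cnfn was just past 2-fold. Ivl, involucrin, which is laid down first beneath the membrane, read 7.59 uninjured and 7.78 injured, a difference of 0.19. Lor, loricrin, the glycine-rich bulk protein of the epidermal envelope, read 6.83 and 6.76, a difference of -0.07. Cnfn, cornifelin, another envelope constituent, read 9.68 uninjured and 10.70 injured, and its difference of 1.02 is barely past the threshold. Under quantile normalization it was 0.98, which ends that call.

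The S100-fused proteins form the keratin-aggregating matrix of cornified cells and of hair. Flg, filaggrin, read 7.67 uninjured and 7.51 injured. Its relative Flg2 read 5.87 and 5.81, and Crnn, cornulin, a protein of squamous mucosa, read 5.57 and 5.86. These 3 measured members were less than 2-fold apart, between -0.16 and 0.29. Hrnr (4.60 uninjured, 4.72 injured), Rptn (4.79, 4.48) and Tchh (4.02, 3.99), which encode hornerin, repetin and the hair protein trichohyalin, lay below the low-signal level in both arrays.

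The Lce genes encode small proteins that enter the envelope late, and the pair of families differed in how many members could be read. Of 9 Lce1 genes, the family of normal epidermis, only Lce1b (6.30 uninjured, 6.42 injured) and Lce1h (5.48, 5.50) were measured, and both were less than 2-fold apart. A further 6 Lce1 genes had values of 3.57 to 5.32, below the low-signal level, with differences of -0.38 to 0.49. The row that Lce1g shares with Lce1l read 4.36 uninjured and 4.37 injured.

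Lce3a was the 1 Lce gene past 2-fold. It read 8.18 in the uninjured and 5.58 in the injured array, a log2 difference of -2.60 (6.06-fold lower). The injured value is close to the low-signal level, and with the constant added it was 4.92-fold lower. Among its family, Lce3b read 5.59 uninjured and 4.88 injured (-0.71), Lce3c 7.79 and 7.25 (-0.54), and Lce3f 6.05 and 5.60 (-0.45), all less than 2-fold apart. The injured Lce3b value lay below the low-signal level, so Lce3b counted as measured only through the uninjured array where it is higher. Lce3d (-0.26) and Lce3e (-0.05) lay below the low-signal level. Lce genes within a family are close copies, and which copy gave each signal is uncertain.

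Of the 23 members that lie in the epidermal differentiation complex 11 were measured, and Lce3a was the 1 past 2-fold, a share near the 8.06% of all measured genes. Outside the complex 10 of 20 measured members were past 2-fold, 5 in each direction, beside the same 8.06%. The difference between these shares was not tested. Several measured members inside the complex read near the low-signal level, such as Lce1h (5.48 uninjured, 5.50 injured) and Crnn (5.57, 5.86). Some outside it did too, such as Pnpla1 (5.94, 5.90). With no detection call, an equal level in both arrays cannot be told apart from background signal there. Of the Sprr genes, which lie within the complex between Lor and Ivl, 7 of 8 measured were at least 2-fold higher, by up to 5.55, beside 4.14% of all measured genes. For 3 of these 7 the uninjured value lay below the low-signal level, so they counted as measured only through the injured array where they are high. Kprp, a keratinocyte proline-rich protein gene that lies near Lce3a, read 8.34 uninjured and 4.42 injured. Its difference of -3.92 is uncertain in size because the injured value lay below the low-signal level (9.57-fold lower with the constant).

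Enzymes that crosslink the envelope were split. Tgm1, the membrane-bound transglutaminase of keratinocytes, read 9.23 uninjured and 10.11 injured, 1.84-fold higher and so short of 2-fold. Tgm5, a second epidermal transglutaminase, read 9.19 uninjured and 8.05 injured, 2.20-fold lower. Tgm3, the enzyme of hair and upper epidermis, read 5.42 and 5.39, below the low-signal level. The plakins that tie keratin and desmosomes to the envelope were both lower: Evpl, envoplakin, read 10.43 uninjured and 9.15 injured (2.43-fold lower), and its partner Ppl, periplakin, read 12.41 and 11.44 with a difference of -0.97, just under the threshold.

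Genes that hold and process the cornified layer were level or lower. Asprv1, the aspartic protease that cleaves profilaggrin, read 12.94 in the uninjured and 10.01 in the injured array, a log2 difference of -2.93 (7.61-fold lower). This is the most negative difference among the measured members, and both values were far above the low-signal level. Csta1, a cystatin A that inhibits cysteine proteases, read 8.88 uninjured and 7.21 injured, 3.19-fold lower. Casp14, the caspase of cornifying cells, read 7.93 and 7.33, a difference of -0.60. Cdsn, corneodesmosin, which glues cornified cells together, read 8.82 in both arrays. Asprv1 was thus 7.61-fold lower while the value of Flg differed by -0.16, and whether the processing of filaggrin differed was not tested.

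The lipid barrier genes had 1 member higher and 1 lower among 8 measured, with a median of 0.05. Over all measured genes 4.14% were higher and 3.92% lower, and counts of 1 gene are too small to set against these shares. Abca12, the transporter that loads glucosylceramide into lamellar granules, read 5.02 uninjured and 6.83 injured, 3.52-fold higher. Its uninjured value lay below the low-signal level, so Abca12 counted as measured only through the injured array where it is high. With the constant added it was 2.77-fold higher. Lipm, a lipase of the acid lipase family made in differentiating keratinocytes, read 9.89 uninjured and 7.78 injured, 4.31-fold lower. Lipk, its relative in the same cluster on chromosome 19, read 6.21 and 5.41, a difference of -0.80. The injured Lipk value lay just below the low-signal level, so Lipk counted as measured only through the uninjured array where it is higher.

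The other 5 measured lipid members were less than 2-fold apart. Ugcg, which makes glucosylceramide, read 5.96 uninjured and 6.58 injured (0.62), and Elovl4, which elongates the very long acyl chains of barrier ceramides, read 5.63 and 6.30 (0.67). Cers3, the ceramide synthase that uses those chains, read 9.83 and 9.96 (0.13). Smpd1, acid sphingomyelinase, which releases ceramide, read 7.51 and 7.12 (-0.38). Pnpla1, which completes the acylceramides, read 5.94 and 5.90 (-0.04).

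Other genes of these pathways, from lists chosen by function, also went both ways. Of 30 further ceramide and barrier lipid genes 23 were measured, with a median of 0.08. Past 2-fold were 4 higher and 2 lower, beside 4.14% and 3.92% of all measured genes. Sult2b1, which makes cholesterol sulfate, read 6.59 uninjured and 9.34 injured, 6.74-fold higher. The elongase Elovl7 (1.36), the ichthyosis gene Nipal4 (1.08) and the ceramide desaturase Degs1 (1.03) were also higher, although Nipal4 and Degs1 were below 2-fold with the constant added (0.98 and 0.99). The sterol transporter Abcg1 read 9.37 uninjured and 7.17 injured, 4.60-fold lower, and Sdr9c7, a dehydrogenase of acylceramides, differed by -1.38.

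In the list of filaggrin and envelope processing 16 of 20 genes were measured, with a median of -0.53. Past 2-fold were 1 higher and 3 lower, beside 4.14% and 3.92% of all measured genes. Tgm2, tissue transglutaminase, read 10.31 uninjured and 6.74 injured, 12.0-fold lower. The serine protease Prss8 (-1.27) and the calpain Capn1 (-1.11) were lower as well. Padi3, a deiminase of filaggrin and trichohyalin, was higher (1.11), but under 2-fold with the constant (0.96). Of 13 other genes of the epidermal differentiation complex 6 were measured, and Kprp was the 1 past 2-fold, beside 8.06% of all measured genes.

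Transcription factors of late epithelial differentiation had a median of -0.33, with 17 of 22 measured. Of these, 2 were past 2-fold upward and 2 downward, beside 4.14% and 3.92% of all measured genes. Maf, a basic leucine zipper factor of epidermal differentiation, read 5.40 uninjured, below the low-signal level, and 8.17 injured (6.86-fold higher, 5.41-fold with the constant). Ahr, the aryl hydrocarbon receptor, was higher by 1.37. Prdm1 (Blimp1) differed by -1.76 and Klf4, a factor needed for the skin barrier, by -1.27. Grhl3, another barrier factor, differed by -0.33.

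**Figure D4:**
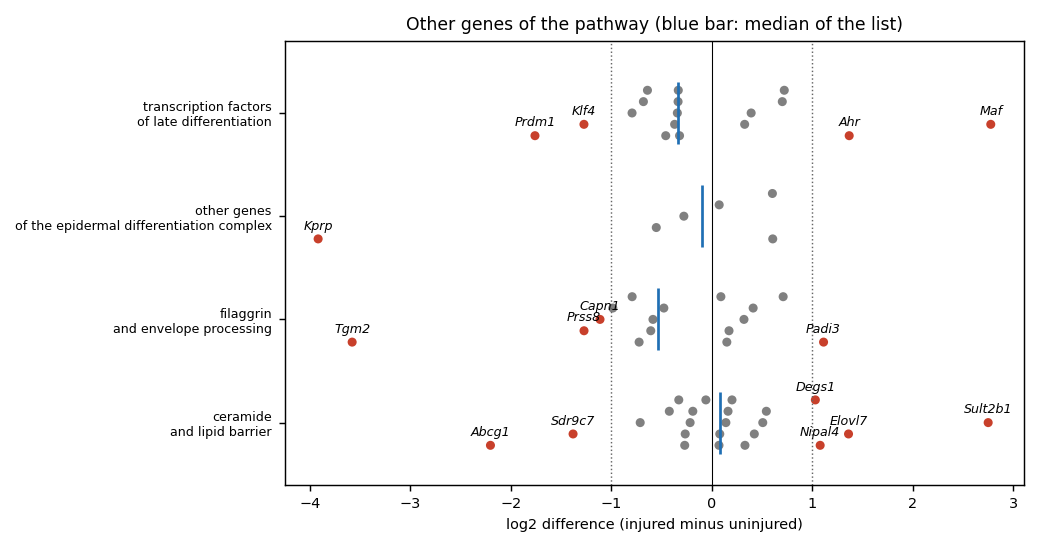
Log2 difference (injured minus uninjured) of the measured genes in 4 lists of related genes, 1 point per gene, red and named where at least 2-fold apart, with a blue bar at each list's median. The medians lie between -0.53 and 0.08, and named points fall on both sides in 3 of the lists.

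The promoter letters were compared over the 250 bases before each start, on both strands. RefSeq windows were at hand for 40 of the 44 members. TGANTCA occurred in 9 of these 40 (22.5%), and in 7.82% of 27025 genes with a window. Members and motifs were chosen with earlier results of these data known, so the contrast is a description and no independent test. The 9 were the 3 secreted-protein genes and, in the epidermal differentiation complex, Ivl, Lor, Flg, Flg2, Crnn and Rptn, with matches that begin 48 to 119 bases before the start. None of 14 Lce genes held a match. A match stood before 3 of the 5 higher members and 0 of the 5 lower members with a window. Groups of 5 genes are too small to set against the 7.82% of all genes, and the 3 matches stand before direct neighbours. A link of match and direction was not tested. Of the 8 measured members with a match, the secreted-protein trio was higher and the other 5 were less than 2-fold apart. Of the 20 measured members with a window but no match, 2 were higher, 5 lower and 13 less than 2-fold apart. The centre base differed between genes: the usual AP-1 letters, TGAGTCA or TGACTCA, stood before Dmkn, Krtdap, Lor and Ivl, 4 of 40 members (10%) against 5.16% of genes, a count added after the matches were seen. The letters of grainyhead-like factors, AACCNGTT, occurred in 1 of 40 members (2.5%, Rptn) against 2% of genes. CACACCC, bound by Krüppel-like factors, occurred in 4 of 40 (10%: Ivl, Cnfn, Tgm3 and Casp14) against 7.9% of genes. No match of one motif overlapped another in these windows. A match is a description of the sequence and not evidence of binding.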

How the data were processed

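The authors deposited 1 table of log2 intensities with 65952 rows and 1 column per sample, 2 in all. Per the labels, 2 µg of RNA was amplified and labelled with biotin. Agilent Feature Extraction 9.1 is named in the submitters' processing notes, although the row identifiers look like transcript clusters of another maker's array. No source used here states the background correction, probe summary, normalization or build. The columns' medians (5.44 injured, 5.43 uninjured) nearly coincide, so values were kept.

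Rows were named from the platform annotation, with symbols updated through RefSeq (GRCm38.p6): 31254 rows carry 1 gene, 1492 carry several and 33206 are unnamed here. Where a gene had several rows, that with the highest mean stood for it. With 1 array per group no test was run. The members, lists and motifs were chosen with earlier results of these data known. All members are accounted for; of other lists, up to 6 genes past 2-fold are named, and Gapdhs, Ffar2, Grhl3, the Sprr range and the markers were named after their values were seen. Python 3.11.15, pandas 2.3.3 and statsmodels 0.14.6 (loess) were used. The code that makes the calls was checked on simulated data with large planted differences in bright genes. That check does not measure how reliable the calls are in these data.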

Additional observations from a re-analysis of the deposited data

How the results depend on the processing

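The count of members at least 2-fold higher was 4 to 5 and that of members lower was 6 under quantile normalization, equal medians, equal 75th percentiles, loess (span 0.3), filters at the 25th and 75th percentile or none, the mean or the dimmest row, and the added constant. The choice of row cannot change a member, since each has 1 row. At 1.5-fold the counts were 8 higher and 10 lower, and at 4-fold 2 and 3. The median was -0.38 over the 19 members kept by a filter at the 75th percentile of the table, and between -0.09 and -0.03 otherwise. With the constant, 3 members moved by more than the spread between rows, to 3.29 for Krtdap, 1.47 for Abca12 and -2.30 for Lce3a. Quantile normalization ended the call of Cnfn alone among the members. No paired analysis was possible because each group has 1 array. Precision is limited by having 1 array per group, and no detection or saturation call was used.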

Other observations

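Neighbours of 2 other members were read in the same way, as values with no test. Beside Lipk and Lipm on chromosome 19, the lipase gene Lipo2 read 8.67 uninjured and 7.26 injured, a log2 difference of -1.40, and Ankrd22 differed by -0.87. Lipn, the lipase gene between Lipk and Lipm, lay below the low-signal level (4.15 uninjured, 4.48 injured). On the far side of Ankrd22 and Stambpl1, Acta2, the smooth muscle actin, read 6.68 uninjured and 8.93 injured. Beside Csta1 on chromosome 16, its relative Stfa1, a stefin that inhibits cysteine proteases, read 10.96 uninjured and 10.23 injured, less than 2-fold apart, while Csta2 and Csta3 lay below the low-signal level. Stefin genes are close copies, and which copy gave each signal is uncertain.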
